A study of Homo sapiens with 9 samples.

Results

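A set of 10 genes of glucose uptake, glycolysis and the hypoxia response were followed in the human lung carcinoma cell line H358 (non-small cell) after loss of either catalytic subunit of SWI/SNF. They were the glucose transporter genes SLC2A1 and SLC2A3, the hexokinase genes HK1 and HK2, the bisphosphatase-kinase genes PFKFB3 and PFKFB4, LDHA, PDK1, CA9 and VEGFA. The genes were listed by name for their roles and are 10 of the 58237 genes of the annotation. All 10 passed the filter on low counts, as did 18205 genes in all. RNA-seq was performed on total RNA of 3 libraries each of a BRG1 knockout (SMARCA4 cut by CRISPR), a BRM knockout (SMARCA2 cut by CRISPR) and the parental line. The medium of all 3 groups was RPMI plus 10% FBS, and the labels name neither a hypoxic nor a glucose-limited condition. The sources used here do not say whether a knockout is 1 clone or a pool, which sites were cut, or whether numbered replicates were separate cultures. The p-values therefore cover the spread between these libraries alone, part or all of which may be technical. The parental line is the only control, so effects of editing and of a lost gene cannot be told apart.

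BRG1 and BRM are the alternative ATPases that drive SWI/SNF complexes, which move nucleosomes and open chromatin. Glucose enters cells through facilitative transporters of the SLC2A family, hexokinases trap it as glucose 6-phosphate, and bisphosphatase-kinases set the level of fructose 2,6-bisphosphate, an activator of phosphofructokinase. At the end of the pathway, lactate dehydrogenase turns pyruvate into lactate, and pyruvate dehydrogenase kinases inhibit the use of pyruvate by pyruvate dehydrogenase. Many of these genes are classical targets of hypoxia-inducible factors, whose alpha subunits are degraded when oxygen is present and which bind hypoxia-response elements with the core ACGTG or GCGTG. CA9, a membrane carbonic anhydrase that regulates pH, and VEGFA, a growth factor for blood vessels, are widely used readouts of the same response.

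Promoter windows from RefSeq on GRCh38.p14, 250 bases before to 50 after each annotated start, were at hand for 8 of the 10 genes, in 18 windows. A core, ACGTG or GCGTG on either strand, was present in 12 of them, while 48.4% of all 35116 windows of that length hold one. Each of the 8 genes had a core in at least 1 window. A gene with several windows has more chances of that, and no share per gene was computed over all genes. Of all windows, 21.4% hold ACGTG and 36.5% hold GCGTG. The main LDHA window, which starts transcription at base 18394563 of chromosome 11, held 5 matches to ACGTG, of which 2 pairs are the same palindromic bases read on both strands, and 1 to GCGTG. The PDK1 window with matches held 2 to ACGTG. The CA9 window is printed because CA9 had the widest range of the 10 genes. Those of HK2 and PFKFB3, a pair each, are printed because they hold transcript starts with different estimated use in the 3 groups. Each is given 5′ to 3′ on the plus strand, with the matched bases in capitals. A match is only a run of letters, and binding was not measured.
CA9, chr9:35673678-35673977, 1 ACGTG at -18 on the minus strand: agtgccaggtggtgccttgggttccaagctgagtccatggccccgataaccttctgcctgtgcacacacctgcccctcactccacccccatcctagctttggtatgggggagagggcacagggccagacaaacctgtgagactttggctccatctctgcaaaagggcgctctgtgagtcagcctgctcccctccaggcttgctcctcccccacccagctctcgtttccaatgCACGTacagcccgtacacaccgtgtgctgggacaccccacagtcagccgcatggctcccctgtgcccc
HK2 upstream start, chr2:74833877-74834176, 2 ACGTG and 1 GCGTG: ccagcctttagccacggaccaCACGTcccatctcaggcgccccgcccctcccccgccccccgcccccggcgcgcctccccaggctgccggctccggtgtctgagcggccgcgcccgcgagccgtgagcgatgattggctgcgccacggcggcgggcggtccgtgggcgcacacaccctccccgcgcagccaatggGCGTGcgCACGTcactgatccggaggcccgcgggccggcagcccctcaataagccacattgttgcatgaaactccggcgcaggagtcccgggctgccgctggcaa
HK2 downstream start, chr2:74834920-74835219, 4 ACGTG in 2 palindromes and 2 GCGTG: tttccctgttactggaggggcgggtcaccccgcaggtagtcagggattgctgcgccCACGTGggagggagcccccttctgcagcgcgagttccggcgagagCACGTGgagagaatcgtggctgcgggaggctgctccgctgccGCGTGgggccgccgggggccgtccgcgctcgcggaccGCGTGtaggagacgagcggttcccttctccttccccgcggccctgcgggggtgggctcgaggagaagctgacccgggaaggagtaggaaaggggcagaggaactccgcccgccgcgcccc
PFKFB3 upstream start, chr10:6144671-6144970, 1 GCGTG: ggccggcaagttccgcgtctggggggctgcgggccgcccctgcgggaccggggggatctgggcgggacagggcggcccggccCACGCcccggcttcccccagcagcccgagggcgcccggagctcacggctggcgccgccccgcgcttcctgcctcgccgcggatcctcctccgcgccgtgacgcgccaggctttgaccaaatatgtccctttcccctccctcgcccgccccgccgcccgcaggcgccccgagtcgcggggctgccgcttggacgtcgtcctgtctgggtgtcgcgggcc
PFKFB3 downstream start, chr10:6202682-6202981, 2 ACGTG in 1 palindrome: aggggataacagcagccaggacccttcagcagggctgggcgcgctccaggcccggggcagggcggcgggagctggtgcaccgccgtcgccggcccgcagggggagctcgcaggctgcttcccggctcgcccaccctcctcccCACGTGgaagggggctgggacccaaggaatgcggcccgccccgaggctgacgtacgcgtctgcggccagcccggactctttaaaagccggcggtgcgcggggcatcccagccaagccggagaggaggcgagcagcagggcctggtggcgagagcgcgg

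The libraries held 34676466 to 39448251 estimated reads in BRG1 knockout, 33720255 to 40679073 in BRM knockout and 31969961 to 40172192 in parental cells. SMARCA4 averaged 22.9 ± 1.51 CPM (counts per 1e+06 reads, scaled by TMM) in BRG1 knockout, 245 ± 4.72 in BRM knockout and 224 ± 17.4 in parental cells (SD, n = 3 each), and SMARCA2 averaged 10.6 ± 1.34 CPM in BRM knockout, 45.2 ± 14.8 in BRG1 knockout and 54.3 ± 4.47 in parental cells. Of 8 markers of lung epithelium, the summed level was 426 to 1227 CPM in BRG1 knockout, 5823 to 6657 CPM in BRM knockout and 5533 to 6020 CPM in parental cells, so the labelled cell type was borne out in BRM knockout and parental libraries and its markers were low in BRG1 knockout, where NKX2-1 was at 0 to 0.0284 CPM. For 8 fibroblast markers the sums were 396 to 1034, 82.6 to 127 and 32.3 to 63.4 CPM in BRG1 knockout, BRM knockout and parental cells, and the BRG1 knockout sums came mostly from COL1A1, COL3A1 and PDGFRB. COL1A2 (0.470 to 0.947 CPM in BRG1 knockout, 0.358 to 1.60 CPM in parental cells) overlapped the parental range, as did LUM (3.35 to 18.8 CPM in BRG1 knockout). The sums of 8 blood markers lay between 2.15 and 9.26 CPM in all 9 libraries. BRG1 knockout replicate 3 stood apart from its group in ribosomal protein reads, at 5.42% against 9.57% and 10.1% in replicates 1 and 2. It also stood apart in markers, with CDH1 at 6.64 CPM against 78.7 and 86.1, KRT19 at 0.277 CPM against 123 and 220 and COL3A1 at 739 CPM against 84.5 and 109. Over all genes, its chi-square per degree of freedom was 137 and 208 against replicates 1 and 2, which stood at 58.6 against each other. Parental replicate 1 stood at 65.6 and 52.5 against the others of its group (11.5 between them), and BRM knockout replicate 2 at 73.5 and 50.9 (24.6). In CPM, parental replicate 1 was lowest of its group in PFKFB3, PFKFB4, LDHA, PDK1 and CA9 and highest in SLC2A3, HK1, HK2 and VEGFA. BRM knockout replicate 2 was lowest in SLC2A1, SLC2A3, HK2, PFKFB3, PFKFB4, LDHA and PDK1 and highest in VEGFA. In bulk RNA, fewer cells of a kind and less RNA per cell cannot be told apart. The part of these shifts in the changes below was not tested.

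In BRG1 knockout against parental cells, 5 of the 10 genes passed the test, at a Benjamini-Hochberg adjusted p under 0.05 over all 18205 genes in edgeR's quasi-likelihood test. SLC2A3 and CA9 rose, and HK2, PFKFB4 and VEGFA fell. Over all genes tested, 43.5% passed, 21.6% upward and 21.9% downward, so the share among the 10 genes is near the background. In BRM knockout against parental cells, 7 passed: SLC2A1, HK2, PFKFB3 and VEGFA rose, and SLC2A3, LDHA and CA9 fell. The background there was 37.4%, with 21% upward and 16.4% downward. Between the knockouts, BRG1 knockout was higher in SLC2A3, LDHA and CA9 and lower in SLC2A1, HK2, PFKFB3, PFKFB4 and VEGFA, that is 8 genes against a background of 45.3%, with 21.6% upward and 23.8% downward. The median log2 fold change of the 10 genes was -0.16, 0.27 and -0.70 in the 3 comparisons in that order, beside medians of -0.01, 0.09 and -0.002 over all genes. The libraries of the 2 groups compared did not overlap for 7 of the 10 genes in BRG1 knockout against parental cells (53.2% of all genes), for 8 in BRM knockout against parental cells (58.1%) and for 9 between the knockouts (55.1%). Both knockouts share their parental libraries, so the comparisons are not independent of each other.

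**Figure D1:**
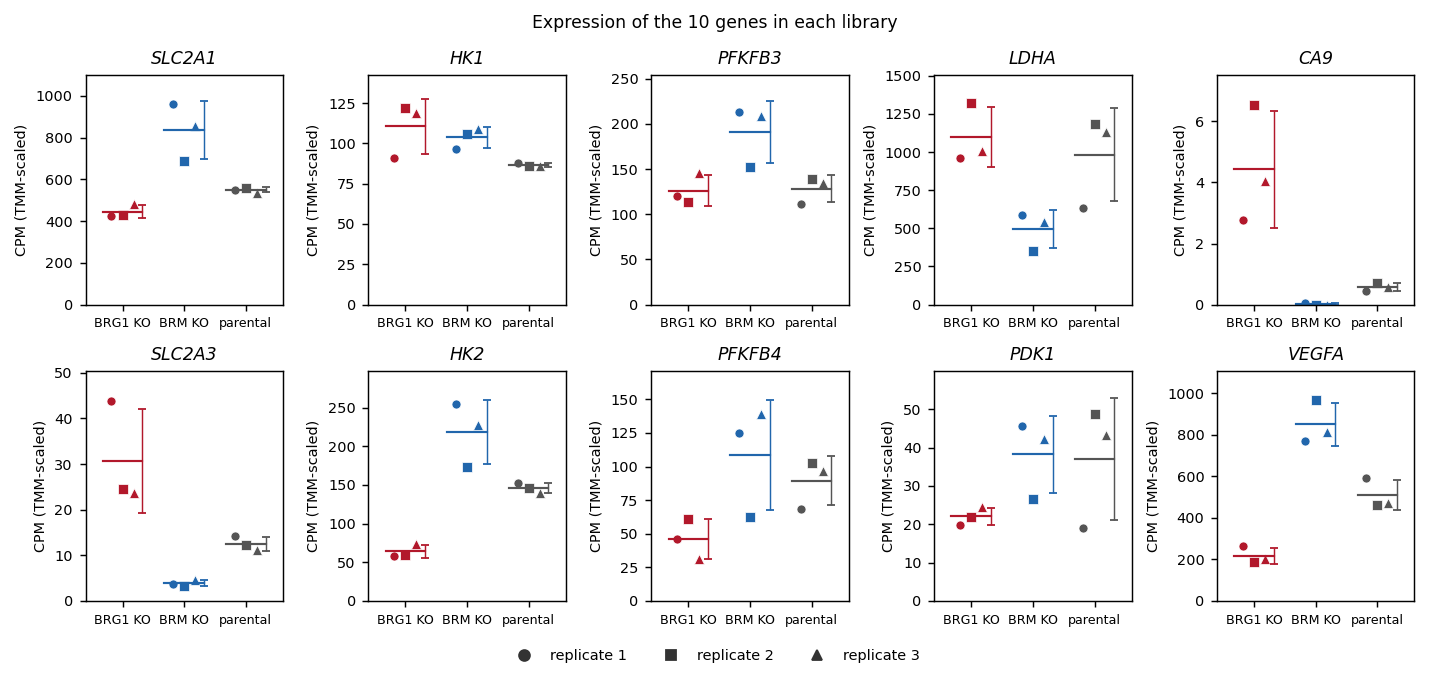
TMM-scaled CPM (linear axes from 0) of the 10 genes in each library, by group; symbols mark the replicate number, bars the mean and error bars the SD of 3 libraries. VEGFA and HK2 lie lowest in the BRG1 knockout libraries and highest in the BRM knockout libraries, while SLC2A3 and CA9 lie in the opposite order.

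SLC2A3, which encodes the high-affinity transporter GLUT3 (chromosome 12, bases 7919230 to 7936275, minus strand, hg38), had 43.8, 24.6 and 23.7 CPM in BRG1 knockout libraries, 3.70, 3.34 and 4.58 CPM in BRM knockout libraries and 14.2, 12.4 and 11.1 CPM in parental libraries. The 3 groups did not overlap, with BRG1 knockout highest and BRM knockout lowest. The log2 fold change was 1.29 ± 0.25 (SE) in BRG1 knockout against parental cells (edgeR adjusted p = 0.00197), -1.69 ± 0.26 in BRM knockout against parental cells (7.81e-04) and 2.98 ± 0.27 between the knockouts (1.14e-05). SLC2A14, a near-identical paralog, held 1 read in all 9 libraries together, and adding its reads left the changes at 1.29, -1.69 and 2.98. Leaving out each library in turn kept all 3 calls, with 0.89 to 1.39 for BRG1 knockout and -1.83 to -1.59 for BRM knockout against parental cells.

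SLC2A1, which encodes GLUT1, the main transporter of basal glucose uptake (chromosome 1, bases 42925375 to 42959176, minus strand), had 423, 431 and 480 CPM in BRG1 knockout, 963, 688 and 857 CPM in BRM knockout and 551, 561 and 537 CPM in parental libraries. All BRM knockout libraries were above, and all BRG1 knockout libraries below, the parental ones. It rose in BRM knockout by 0.60 ± 0.15 on the log2 scale (edgeR adjusted p = 0.011). That call was lost without parental replicate 3 (0.59, adjusted p = 0.0523) and without BRM knockout replicate 1 (0.40, adjusted p = 0.107). In BRG1 knockout the change against parental cells was -0.31 ± 0.15 and did not pass (edgeR adjusted p = 0.131). It passed without BRG1 knockout replicate 3 (-0.43, adjusted p = 0.0391) and without both that library and parental replicate 1 (-0.45, adjusted p = 0.0494). The change also passed with an offset for effective transcript length (-0.59, adjusted p = 0.0393) and with a GC and length correction (-0.42, adjusted p = 0.0367). BRG1 knockout was lower than BRM knockout by a log2 change of -0.91 ± 0.16 (edgeR adjusted p = 7.75e-04). The pair of transporter genes thus lay in opposite orders over the 3 groups. The SLC2A1 to SLC2A3 ratio in TPM (a level per transcript length) was 27.1 ± 12.8 in BRG1 knockout, 493 ± 65.3 in BRM knockout and 95.1 ± 10.2 in parental cells (SD, n = 3 each), with no overlap between groups. That ratio includes SLC2A1 transcripts annotated as a retained intron or for nonsense-mediated decay, whose shares are given with the levels below.

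HK2, the inducible hexokinase of tumour cells (chromosome 2, bases 74833981 to 74893359, plus strand), had 58.6, 59.8 and 74.0 CPM in BRG1 knockout, 255, 174 and 227 CPM in BRM knockout and 152, 146 and 140 CPM in parental libraries. No library of one group reached the values of another. The log2 fold change was -1.19 ± 0.17 in BRG1 knockout against parental cells (edgeR adjusted p = 2.89e-04), a call that each left-out library kept. In BRM knockout it was 0.58 ± 0.17 (adjusted p = 0.019), which did not pass without parental replicate 2 or 3 or BRM knockout replicate 1 or 3 (0.36 to 0.58, the lowest without BRM knockout replicate 1, adjusted p = 0.155) nor with no filter on low counts (0.48, adjusted p = 0.061). Between the knockouts it was -1.77 ± 0.17 (adjusted p = 1.83e-05).

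HK1, the constitutive hexokinase (chromosome 10, bases 69269984 to 69401884, plus strand), had 90.9, 122 and 119 CPM in BRG1 knockout, 96.5, 106 and 109 CPM in BRM knockout and 87.7, 86.0 and 85.9 CPM in parental libraries. Both knockout groups lay above the parental libraries, but no comparison passed, with 0.35 ± 0.14 in BRG1 knockout (edgeR adjusted p = 0.0688), 0.26 ± 0.14 in BRM knockout (0.176) and 0.09 ± 0.14 between them (0.635). The first of these passed without BRG1 knockout replicate 1 (0.41, adjusted p = 0.0488) and with upper-quartile scaling (0.41, adjusted p = 0.0327). Without BRG1 knockout replicate 2 it was 0.21 (adjusted p = 0.279), without BRG1 knockout replicate 3 0.23 (adjusted p = 0.228), and without both parental replicate 1 and BRG1 knockout replicate 3 0.23 (adjusted p = 0.287). In TPM, the HK2 to HK1 ratio was 0.398, 0.299 and 0.395 in BRG1 knockout, 1.62, 0.999 and 1.23 in BRM knockout and 1.05, 1.03 and 0.985 in parental libraries. HK1 thus exceeded HK2 per length in every BRG1 knockout library, and the paralogs were about level in parental cells.

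**Figure D2:**
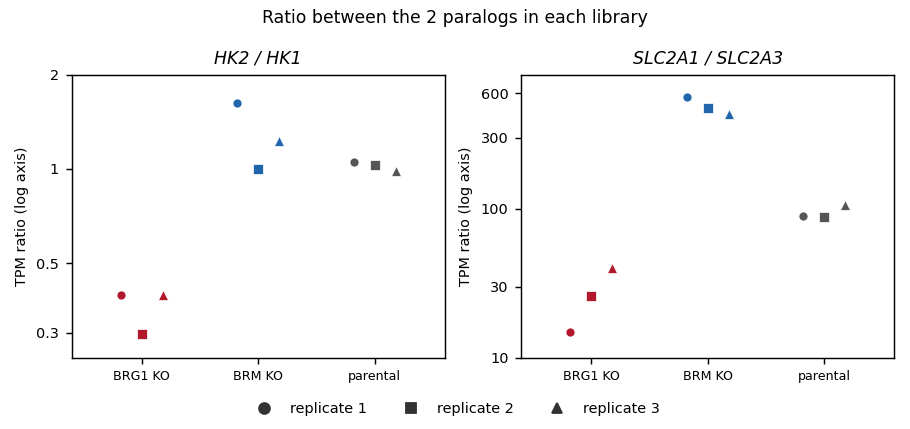
TPM ratios of HK2 to HK1 and of SLC2A1 to SLC2A3 in each library (log axes), by group, with symbols for the replicate number. The TPM of a gene sums all its transcripts, which for SLC2A1 include transcripts not annotated as coding. HK2 to HK1 is 0.299 to 0.398 in BRG1 knockout against 0.985 to 1.05 in parental cells; SLC2A1 to SLC2A3 averages 493 in BRM knockout and 27.1 in BRG1 knockout against 95.1 in parental cells.

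PFKFB3, the bisphosphatase-kinase with the strongest bias to kinase activity (chromosome 10, bases 6144934 to 6254644, plus strand), had 120, 114 and 145 CPM in BRG1 knockout, 214, 152 and 209 CPM in BRM knockout and 111, 139 and 135 CPM in parental libraries. BRM knockout libraries were all above the parental range, which BRG1 knockout overlapped. Its change was -0.02 ± 0.17 in BRG1 knockout (edgeR adjusted p = 0.927), 0.58 ± 0.18 in BRM knockout (0.0241) and -0.60 ± 0.18 between the knockouts (0.0167). The BRM call was lost without any 1 of the 3 parental libraries, BRG1 knockout replicate 1, BRM knockout replicate 1 or BRM knockout replicate 3 (0.40 to 0.64, adjusted p up to 0.166), with the GC and length correction (0.35, adjusted p = 0.134), with no filter (0.48, adjusted p = 0.0701) and in the fit that omitted BRG1 knockout replicate 3 together with parental replicate 1 (0.38, adjusted p = 0.0828). The call between knockouts was lost without BRG1 knockout replicate 1 or 2 or BRM knockout replicate 1 or 3 (-0.54 to -0.50).

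PFKFB4, its hypoxia-inducible relative (chromosome 3, bases 48517684 to 48562015, minus strand), had 46.1, 61.2 and 31.4 CPM in BRG1 knockout, 125, 62.1 and 139 CPM in BRM knockout and 68.6, 103 and 97.0 CPM in parental libraries. All BRG1 knockout libraries were below all others, and the BRM knockout and parental libraries overlapped. The change was -0.95 ± 0.32 in BRG1 knockout (edgeR adjusted p = 0.0322), 0.28 ± 0.31 in BRM knockout (0.513) and -1.23 ± 0.32 between the knockouts (0.00949). The BRG1 call was lost without parental replicate 2 or 3 or BRG1 knockout replicate 1 or 3 (-1.01 to -0.81, adjusted p = 0.0718 to 0.0998), with upper-quartile scaling (-0.88, adjusted p = 0.0512) and with no filter (-1.03, adjusted p = 0.065). PFKFB4 shares 289 exon bases with UCN2 on the same strand, where reads cannot be told apart. UCN2 held 37.9, 78.7 and 55.7 reads in BRG1 knockout, 19, 21 and 33 in BRM knockout and 202, 633 and 531 in parental libraries. The part of this overlap in the PFKFB4 changes was not tested.

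LDHA, which encodes the muscle-type subunit of lactate dehydrogenase (chromosome 11, bases 18394388 to 18408425, plus strand), had 964, 1322 and 1007 CPM in BRG1 knockout, 588, 353 and 539 CPM in BRM knockout and 634, 1187 and 1128 CPM in parental libraries. All BRM knockout libraries were below the rest, although parental replicate 1 lay close to them. The change was 0.16 ± 0.26 in BRG1 knockout (edgeR adjusted p = 0.656), -0.99 ± 0.27 in BRM knockout (0.0138) and 1.15 ± 0.27 between the knockouts (0.00511). The BRM call was lost without parental replicate 2 (-0.84, adjusted p = 0.0631), parental replicate 3 (-0.88, 0.0573) or BRM knockout replicate 2 (-0.80, 0.0533).

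PDK1, a kinase that inhibits pyruvate dehydrogenase (chromosome 2, bases 172555373 to 172608669, plus strand), had 19.9, 21.9 and 24.4 CPM in BRG1 knockout, 45.6, 26.6 and 42.3 CPM in BRM knockout and 18.9, 48.6 and 43.3 CPM in parental libraries. Parental replicate 1 lay at the BRG1 knockout level, far under the other two. No comparison passed, with -0.75 ± 0.32 in BRG1 knockout (edgeR adjusted p = 0.0805), 0.05 ± 0.31 in BRM knockout (0.921) and -0.79 ± 0.32 between the knockouts (0.0637). Without parental replicate 1 the change in BRG1 knockout was -1.06 (adjusted p = 0.00498), and with an effective length offset -1.04 (adjusted p = 0.0181). Without both parental replicate 1 and BRG1 knockout replicate 3 it was -1.22 (adjusted p = 0.00217). These settings (adjusted p = 0.0113, 0.0246 and 0.00963 in that order) also brought the difference between the knockouts past the threshold. So did leaving out BRM knockout replicate 2 (adjusted p = 0.0365) and fitting only the 6 samples compared (adjusted p = 0.0209). Under the GC and length correction that difference was -0.36 (adjusted p = 0.427). The change in BRG1 knockout against parental cells was nearer to 0 without parental replicate 2 (-0.50, adjusted p = 0.274) and under the GC and length correction (-0.48, adjusted p = 0.292). PDK1 shares 445 exon bases with the antisense gene AC078883.1, and the sources used here do not say whether the libraries kept strand.

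CA9 (chromosome 9, bases 35673856 to 35681159, plus strand) was the least expressed of the 10 genes in each group and had the widest range. It held 97, 248 and 146 reads in BRG1 knockout, 2, 0 and 0 reads in BRM knockout and 14, 27 and 24 reads in parental libraries. The groups did not overlap. Scaled for library size, the summed reads of BRG1 knockout were 7.79 times those of parental cells (95% counting interval 6.01 to 10.3), and those of parental cells 31.7 times those of BRM knockout (8.43 to 267), intervals that cover counting error only. BRG1 knockout exceeded BRM knockout 247 times (68.0 to 2045). In edgeR's test the log2 fold change of BRG1 knockout against parental cells was 2.95 ± 0.49 (adjusted p = 7.15e-04), with 2.49 to 3.14 when single libraries were left out. The fall in BRM knockout passed at an edgeR adjusted p of 0.00115, while its fitted fold depends on the prior count. CA9 shares 643 exon bases with ARHGEF39 on the opposite strand, which held 176 to 244 reads in BRG1 knockout, 78.9 to 234 in BRM knockout and 544 to 769 in parental libraries, so reads of overlapping exons cannot be assigned without strand.

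VEGFA (chromosome 6, bases 43770184 to 43786487, plus strand) had 262, 188 and 200 CPM in BRG1 knockout, 771, 966 and 813 CPM in BRM knockout and 592, 463 and 471 CPM in parental libraries. The 3 groups did not overlap, with BRM knockout highest. Its log2 fold change was -1.23 ± 0.18 in BRG1 knockout (edgeR adjusted p = 3.45e-04), 0.74 ± 0.18 in BRM knockout (0.00832) and -1.97 ± 0.18 between the knockouts (1.45e-05), and no left-out library changed these calls. Under the GC and length correction the BRM change was 0.40 (adjusted p = 0.0996). VEGFA shares 188 exon bases with the antisense gene AL136131.3, which held 0 reads in all 9 libraries. CA9 and VEGFA, both counted as hypoxia readouts, thus lay in opposite orders over the 3 groups.

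**Figure D3:**
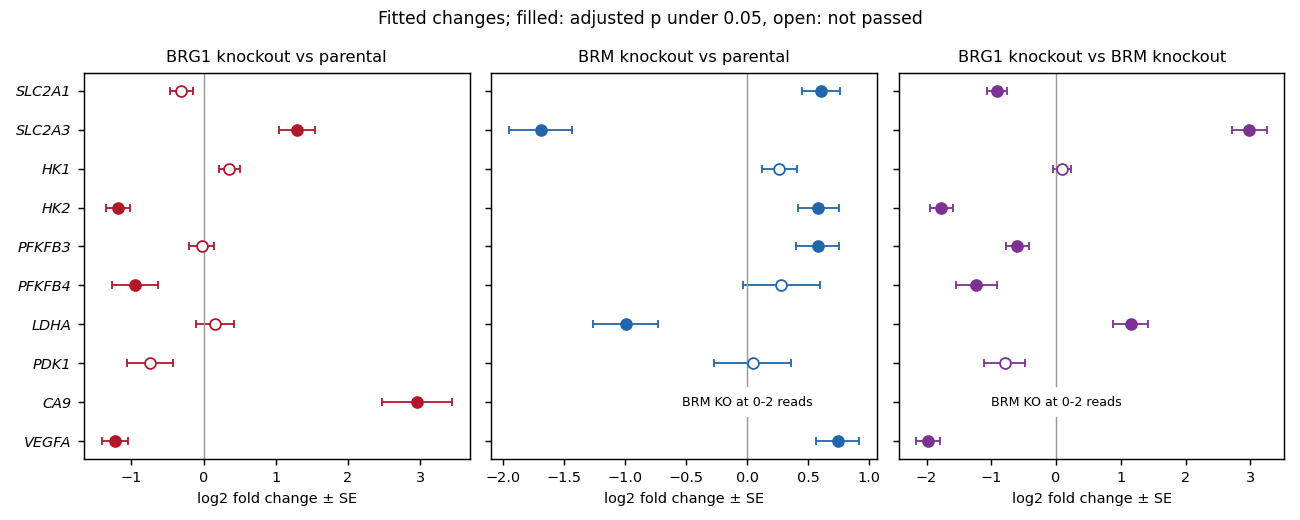
Fitted log2 fold change with SE for the 10 genes in 3 comparisons of 3 libraries each; filled points passed an adjusted p of 0.05 and open points did not. HK2 (-1.19) and VEGFA (-1.23) lie left of 0 in BRG1 knockout and right of 0 in BRM knockout (0.58 and 0.74), and SLC2A3 lies the other way; CA9 is not drawn against BRM knockout, which held 0 to 2 reads.

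Per length, LDHA had the highest level of the 10 genes in BRG1 knockout (990 ± 120 TPM) and in parental cells (1168 ± 412 TPM), with SLC2A1 next at 289 ± 120 and 479 ± 28.2 TPM. In BRM knockout SLC2A1 averaged 708 ± 79.5 TPM and LDHA 551 ± 124 TPM, with overlapping libraries. VEGFA came next in every group, at 525 ± 41.8 TPM in BRM knockout, where its libraries overlapped those of LDHA, 124 ± 29.9 TPM in BRG1 knockout and 314 ± 41.2 TPM in parental cells. PFKFB3, PFKFB4, HK1 and HK2 followed, between 15.1 and 67.7 TPM on average in all groups. Neighbours in that middle order overlapped in most cases: PFKFB3 (42.4 ± 12.2 TPM) with HK1 (41.6 ± 8.56 TPM) in BRG1 knockout, and HK2 (37.3 ± 1.21 TPM) with HK1 (36.5 ± 0.72 TPM) in parental cells. PDK1, SLC2A3 and CA9 were the lowest. SLC2A3 (11.5 ± 4.27 TPM) stood above PDK1 (7.22 ± 2.26 TPM) in BRG1 knockout, with overlapping libraries, and below it in the other groups. Part of the SLC2A1 level came from the short transcript SLC2A1-202, of 578 bases and annotated as a retained intron, which held 19.9, 11.2 and 47.4% of the gene's TPM in BRG1 knockout, 41.6 to 48.9% in BRM knockout and 38.4 to 51.3% in parental libraries. SLC2A1-208, annotated for nonsense-mediated decay, held 42.9 ± 17.3%, 28.1 ± 2.10% and 27.7 ± 3.31% in the same groups in that order. SLC2A1-203, annotated as protein coding, held 30.5 ± 1.92%, 25.1 ± 1.72% and 26.3 ± 3.20%, or 86.7 ± 30.1, 179 ± 31.1 and 125 ± 7.71 TPM.

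Transcript estimates pointed to unequal use of starts within the printed HK2 and PFKFB3 windows, given here as a description with no test. The HK2 upstream window is set on the RefSeq start at base 74834127, but HK2-201 starts before it, at base 74833981. Part of that window thus lies inside HK2-201. HK2-202, which starts at the downstream site (base 74835170), held 20.3, 31.5 and 6.56% of HK2's TPM in BRG1 knockout, 2.14, 1.21 and 1.56% in BRM knockout and 1.58, 0.732 and 2.21% in parental libraries. Every BRG1 knockout library was above all others, with replicate 3 the nearest to them. The level of HK2-202 averaged 2.61 ± 1.26 TPM in BRG1 knockout, 0.918 ± 0.424 TPM in BRM knockout and 0.555 ± 0.258 TPM in parental cells, while the main transcript HK2-201 averaged 12.2 ± 4.93 TPM in BRG1 knockout, 52.7 ± 9.80 TPM in BRM knockout and 36.7 ± 1.45 TPM in parental cells. PFKFB3-205, from the upstream site (base 6144934), held 30.4, 51.5 and 22.9% of PFKFB3's TPM in BRG1 knockout, 6.82, 9.62 and 8.93% in BRM knockout and 10.2, 4.08 and 2.87% in parental libraries. Its level was 13.7 ± 2.53 TPM in BRG1 knockout, 5.66 ± 0.769 TPM in BRM knockout and 2.62 ± 1.49 TPM in parental cells. PFKFB3-203, from the downstream site, averaged 23.7 ± 10.6, 53.4 ± 12.4 and 37.2 ± 7.63 TPM in the same groups in that order. In TPM, PFKFB3-205 was higher in every BRG1 knockout library than in any parental one. The same held for BRM knockout (4.97, 5.53 and 6.49 TPM against 4.29, 2.14 and 1.42 TPM in parental libraries). PFKFB3-203, lower on average in BRG1 knockout, overlapped between BRG1 knockout and parental libraries. Short transcripts set BRG1 knockout replicates 1 and 2 apart from replicate 3 in other members: LDHA-221 held 2.72, 0.369 and 14.6% of LDHA's TPM in BRG1 knockout against 14.6 to 18.3% in parental libraries. That difference moves with the ribosomal protein share given above, and its part in the transcript shares was not tested.

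**Figure D4:**
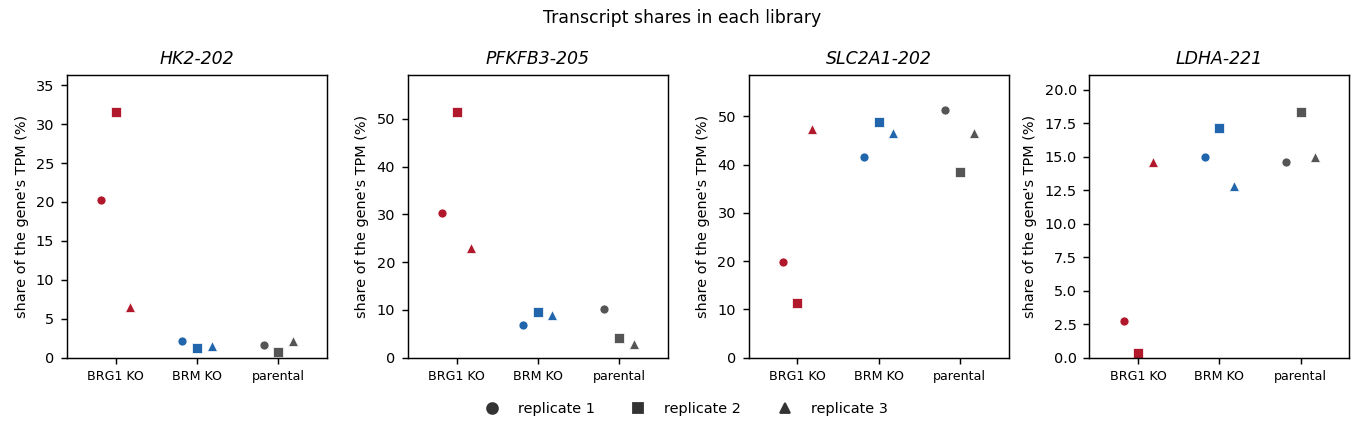
Share of the gene's TPM (percent) held by 4 transcripts in each library, by group, with symbols for the replicate number. HK2-202 and PFKFB3-205 lie at 6.56 to 31.5% and 22.9 to 51.5% in BRG1 knockout, above all parental libraries; SLC2A1-202 and LDHA-221 are low in BRG1 knockout replicates 1 and 2 only.

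The genes around these 10 were described from lists of their pathways, whose counts stand beside 43.5% of all genes passing in BRG1 knockout (21.6% upward, 21.9% downward) and 37.4% in BRM knockout (21% upward, 16.4% downward), each against parental cells. Of the other glucose transporter genes, 9 of 13 were tested, and 4 rose and none fell in BRG1 knockout, among them SLC2A11 (36.8 ± 1.62 against 8.91 ± 1.88 CPM in parental cells, log2 change 2.05, edgeR adjusted p = 1.57e-05) and SLC2A10 (1.23, adjusted p = 0.00294). SLC2A5, a fructose transporter, held 133, 57 and 75 reads in BRG1 knockout libraries and 10, 2 and 0 in parental ones. The sums, 265 and 12 reads, differed 22.8 times after scaling (95% counting interval 12.8 to 44.7, for counting error only). Its log2 change between these groups was 4.42 (edgeR adjusted p = 0.0014). In BRM knockout 2 rose and 2 fell, so the share that passed was near the background of 43.5% in BRG1 knockout and of 37.4% in BRM knockout. SLC2A12 rose (1.59, adjusted p = 0.00558), and SLC2A8 fell (-1.09, adjusted p = 0.00416).

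Of 15 core glycolysis enzymes tested, 1 rose and none fell in BRG1 knockout, against a background of 43.5% of genes passing. That gene was PFKL (0.64, edgeR adjusted p = 0.0486), whose call was lost without any 1 of the parental or BRG1 knockout libraries or of BRM knockout replicates 1 and 3 (0.41 to 0.72, adjusted p up to 0.217). In BRM knockout 4 rose and 3 fell, against a background of 37.4%. ALDOA, an aldolase, fell there to 824 ± 134 CPM against 1638 ± 292 CPM in parental cells (log2 change -0.99, edgeR adjusted p = 0.00347), and ENO3 rose (1.27, adjusted p = 0.00287). GAPDH was lower in BRM knockout (-0.89, adjusted p = 0.0146), a call lost without parental replicate 2 or 3 or BRM knockout replicate 2 or 3 (-0.83 to -0.77). ENO1, the main enolase, and PKM, pyruvate kinase, were chosen after their values were seen: ENO1 rose to 5349 ± 781 CPM in BRM knockout against 2924 ± 239 CPM in parental cells (0.87, adjusted p = 0.00287), and PKM fell to 2460 ± 527 CPM against 4455 ± 803 CPM (-0.86, adjusted p = 0.00824).

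Lactate and pyruvate handling, with 8 genes tested, had 2 that rose and 2 that fell in BRG1 knockout, and none that rose and 3 that fell in BRM knockout, near the backgrounds of 43.5% and 37.4% of genes passing. SLC16A1, the lactate carrier MCT1, averaged 56.2 ± 12.7 CPM in BRG1 knockout against 15.8 ± 4.40 CPM in parental cells (1.83, edgeR adjusted p = 0.00155), and its chaperone BSG also rose there (1.00, adjusted p = 2.97e-04). SLC16A3, the lactate exporter MCT4, named after its values were seen, fell in BRG1 knockout (-0.69, adjusted p = 0.0069). LDHB, the heart-type subunit, fell in BRM knockout (-0.79, adjusted p = 0.00251), as LDHA did. Of 11 genes of pyruvate dehydrogenase and its regulators, 2 rose and 3 fell in BRG1 knockout, and 1 rose and none fell in BRM knockout, near the background of 43.5% in BRG1 knockout and under that of 37.4% in BRM knockout. PDK3, another of its kinases, fell to 11.9 ± 1.97 CPM in BRG1 knockout against 37.5 ± 1.35 CPM in parental cells (-1.65, adjusted p = 3.53e-05), and DLAT, a subunit of the complex, fell as well (-1.13, adjusted p = 1.78e-04).

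Among the other 3 hexokinases and bisphosphatase-kinases tested, PFKFB2 fell in BRG1 knockout (-1.02, edgeR adjusted p = 0.00221), and TIGAR, a fructose bisphosphatase, fell in BRM knockout (-1.48, adjusted p = 0.00595). For these counts and those of the next lists, the background was 43.5% of all genes in BRG1 knockout and 37.4% in BRM knockout. Of 4 gluconeogenesis genes tested, 1 fell and none rose in BRG1 knockout. FBP1 held 8 reads there against 832 in parental cells, which were 101 times higher after scaling (95% counting interval 50.9 to 234, for counting error only). Its log2 change in BRG1 knockout was -6.60 (edgeR adjusted p = 6.03e-05). In BRM knockout 1 rose, PCK2 (1.16, adjusted p = 0.00204), and 1 fell. Of 6 genes of the glucose-sensing MondoA pathway, 2 rose and 1 fell in BRG1 knockout and 1 rose in BRM knockout, MLXIPL, which encodes the carbohydrate-responsive factor ChREBP (1.85, adjusted p = 0.00321). TXNIP, which restrains glucose uptake, was at 562 ± 125 CPM in BRG1 knockout against 127 ± 12.4 CPM in parental cells (2.15, adjusted p = 0.0302), a call lost without any 1 of the 6 libraries of those groups, with changes of 1.97 to 2.25 and adjusted p up to 0.0981. The other calls in BRG1 knockout were lost as well, ARRDC4 (1.35, edgeR adjusted p = 0.0459) in 7 and MLX (-0.41, adjusted p = 0.0324) in 4 of the fits without 1 library.

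HIF1A, the oxygen-regulated subunit of the main hypoxia factor, averaged 379 ± 76.5 CPM in BRG1 knockout, 605 ± 19.6 CPM in BRM knockout and 900 ± 84.0 CPM in parental cells. It fell in both, by 1.25 on the log2 scale in BRG1 knockout (edgeR adjusted p = 2.27e-04) and by 0.57 in BRM knockout (adjusted p = 0.0217), the second call being lost without parental replicate 1 or 2 or BRM knockout replicate 2 or 3 (-0.66 to -0.50 over the left-out libraries, adjusted p up to 0.0632) and with the effective length offset (-0.53, adjusted p = 0.0557). Of the 10 hypoxia factor and regulator genes tested, 2 rose and 1 fell in BRG1 knockout, and 2 rose and 2 fell in BRM knockout. Those that rose in BRG1 knockout were ARNT2 (1.35, edgeR adjusted p = 0.00189) and EGLN2 (0.59, adjusted p = 0.00574). In BRM knockout they were EPAS1 (253 ± 35.1 against 139 ± 30.5 CPM in parental cells, 0.86, adjusted p = 0.0316) and ARNT2 (0.80, adjusted p = 0.0324). Each of these BRM calls was lost in 6 of the fits without 1 library (adjusted p up to 0.122). EGLN3, an oxygen-sensing prolyl hydroxylase that is itself a hypoxia target, fell in BRM knockout (-0.99, adjusted p = 0.0102). Of 27 other hypoxia targets, all tested, 14 rose and 2 fell in BRG1 knockout, with a median change of 0.73, and 10 rose and 1 fell in BRM knockout, with a median of 0.38. The upward background was 21.6% and 21% of all genes. In BRG1 knockout ADM, a vasodilator peptide, rose to 54.4 ± 4.93 CPM against 12.1 ± 3.22 CPM in parental cells (2.17, adjusted p = 1.03e-04), and PLOD1, a collagen lysyl hydroxylase, rose to 880 ± 107 CPM against 213 ± 10.8 CPM (2.04, adjusted p = 5.16e-06). In BRM knockout WSB1 rose (2.10, adjusted p = 5.38e-05), as did MXI1 (1.33, adjusted p = 7.42e-04). With an effective length offset 9 of the 27 rose in BRG1 knockout, and without parental replicate 3, BRM knockout replicate 1 or BRM knockout replicate 3 the count in BRM knockout was 6. The fibroblast markers summed to 396 to 1034 CPM in BRG1 knockout against 32.3 to 63.4 CPM in parental cells, and their part in the change of collagen-modifying targets such as PLOD1 was not tested.

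**Figure D5:**
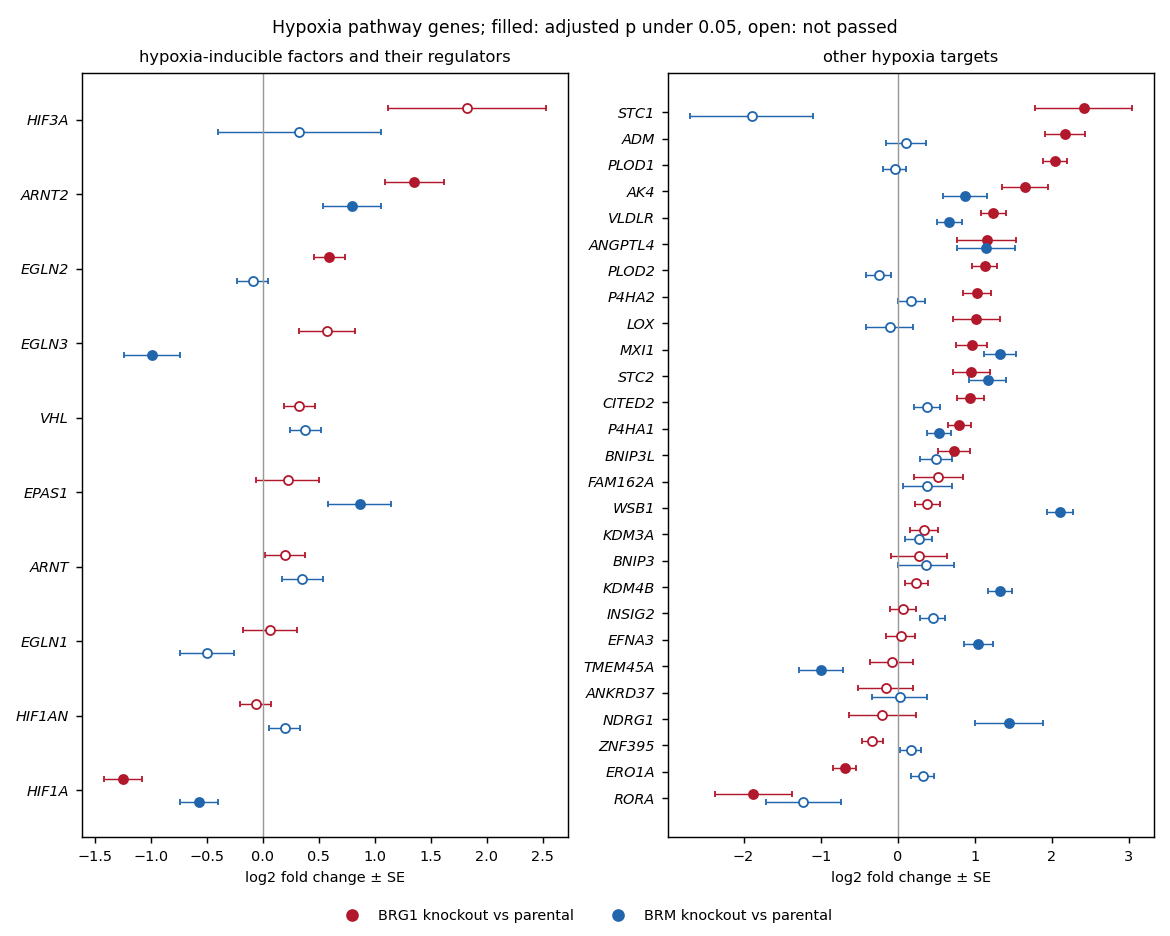
Log2 fold change with SE of 10 hypoxia factor and regulator genes and of 27 other hypoxia targets in BRG1 knockout and BRM knockout, each against parental cells; filled points passed an adjusted p of 0.05. HIF1A lies left of 0 in both, while 14 targets in BRG1 knockout and 10 in BRM knockout passed to the right of 0.

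Among the VEGF family and its receptors, 7 of 9 genes were tested, and 3 rose and 1 fell in BRG1 knockout (43.5% of all genes passed) and 2 rose and 3 fell in BRM knockout (37.4%). PGF, placental growth factor, averaged 165 ± 9.64 CPM in BRG1 knockout, 5.07 ± 0.439 CPM in BRM knockout and 12.7 ± 3.18 CPM in parental cells, with log2 changes of 3.70 (edgeR adjusted p = 7.12e-07) and -1.33 (adjusted p = 4.63e-04) against parental cells. That order is the reverse of VEGFA's. KDR, the main VEGFA receptor, rose to 56.6 ± 14.7 CPM in BRM knockout against 4.55 ± 1.28 CPM in parental cells (3.64, adjusted p = 3.88e-05), while the other 7 endothelial markers checked stayed at or under 3.16 CPM in each library. Of 6 other carbonic anhydrases tested, 3 rose and none fell in BRG1 knockout, and 2 rose and none fell in BRM knockout, beside the same 43.5% and 37.4% of all genes. CA5B, a mitochondrial form, averaged 10.4 ± 0.794 CPM in BRG1 knockout against 4.23 ± 0.510 CPM in parental cells (1.30, adjusted p = 8.43e-04), and that call was lost with an effective length offset (0.76, adjusted p = 0.103).

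The 3 genes with the widest range of group means were CA9, SLC2A3 and VEGFA. For each, the protein-coding genes nearest in pattern were found by the root mean square difference of centred log2 CPM over the 9 libraries. Candidates, 10142 for CA9 and 10141 for the others, had a mean log2 CPM of at least 3. The nearest of that many lie under the median by selection, so the medians give a scale only. CA9's values in BRM knockout rest on 2, 0 and 0 reads and so on the prior count. Nearest to CA9 were FMNL3 (0.56), TFPI2 (0.56) and IGFBP3 (0.60), where the median over all candidate genes was 2.49. IGFBP3, an insulin-like growth factor binding protein, averaged 268 ± 34.5 CPM in BRG1 knockout, 10.2 ± 3.04 CPM in BRM knockout and 54.8 ± 9.03 CPM in parental cells. Nearest to SLC2A3 were CDH11 (0.32), HIST1H1C (0.35) and ZNF22 (0.38), with a median of 1.27 over candidates. Nearest to VEGFA were NAMPT (0.12), PSD4 (0.14) and STX3 (0.17), with a median of 0.91. NAMPT, an enzyme of NAD salvage, averaged 70.4 ± 9.32 CPM in BRG1 knockout, 293 ± 30.8 CPM in BRM knockout and 177 ± 15.4 CPM in parental cells.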

How the data were processed

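RNA-seq libraries of 3 BRG1 knockout, 3 BRM knockout and 3 parental samples of H358 were compared. Each deposited file holds the estimated counts (expected counts, not whole numbers) and TPM of 203835 transcripts, made by the authors with Salmon and not otherwise normalized. This is per the submitters' processing notes, which also name DESeq2 and hg38, and per the file headers. No source used here gives versions, annotation, library strand or bias settings. The deposited effective lengths are the length minus a constant of 271.498 to 302.373 bases per library, so they carry no GC correction. By identifier, 203746 transcripts were assigned to GENCODE 29 genes, and the other 89 took up to 0.0193% of the reads in a library. Estimated counts were summed per gene and rounded, filtered with filterByExpr, scaled by TMM and fitted to all 9 libraries with edgeR 4.0.16 in R 4.3.3 (robust glmQLFit, two-sided quasi-likelihood test, 6 residual degrees of freedom, common biological coefficient of variation 0.253). The SE was approximated from the fold change and the F statistic. P-values were adjusted by Benjamini-Hochberg over 18205 genes. Depth of 31969961 to 40679073 reads limits precision for low genes such as CA9, whose intervals cover counting error only. Levels between genes are TPM, summed over transcripts. The fit was tested on simulated counts. The 10 genes, the pathway lists and the tests were chosen with earlier results of these data known. Named beside the 10 genes were, per list and knockout, up to 3 passing genes with a mean log2 CPM of at least 1 in the higher group, by size of change, of which the text gives a part. HIF1A, ALDOC and PFKL in BRM knockout, ENO1, PKM and SLC16A3 were added after their values were seen. The other scalings, filters, tests (limma 3.58.1, DESeq2 1.42.0), length and GC offsets and left-out libraries are given in the closing section.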

Additional observations from a re-analysis of the deposited data

How the results depend on the processing

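Of the 30 changes of the 10 genes over 3 comparisons, none reversed past the threshold under the alternatives run, and the calls for SLC2A3, HK2, CA9 and VEGFA in BRG1 knockout against parental cells, for SLC2A3 and CA9 in BRM knockout against parental cells, and for SLC2A1, SLC2A3, HK2, PFKFB4, LDHA, CA9 and VEGFA between the knockouts held in all of them. The calls that did not hold are given with their genes. Of the 10 genes, 3 fell in BRG1 knockout against parental cells, and 5 fell with the effective length offset, as 5 did when BRG1 knockout replicate 3 and parental replicate 1 were both left out. In BRM knockout 4 rose, and 2 rose with no filter and 2 with the correction for GC content and length, an alternative chosen after seeing the data. With single libraries left out, 1 to 4 rose: 2 without parental replicate 2, 1 without parental replicate 3, 1 without BRM knockout replicate 1 and 2 without BRM knockout replicate 3. The cause was not tested. Counts in the short pathway lists often moved by more than 1.5 times or from or to none, in 203 of the counts over lists, directions, comparisons and alternatives, where 1183 did not. With a replicate block, 7486 genes passed in BRG1 knockout and 6392 in BRM knockout against parental cells and 7802 between the knockouts, beside 7914, 6805 and 8252 without it. Deviations from the group means of libraries with the same number correlated at -0.079 to 0.175, so the numbers were not taken to pair the samples. The constant between length and effective length was, however, largest in replicate 3 of each group. It was 302 bases there in BRG1 knockout, 295 in BRM knockout and 296 in parental cells. Whether the numbers mark a shared preparation was not tested. Under the block the fall of PFKFB4 in BRG1 knockout did not pass (-0.95, adjusted p = 0.0628), and the 10 genes had no other change of call. Reads of CA9 in BRM knockout, at 0 to 2 per library, set only a wide interval on its fall.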

Other observations

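Ratios between 2 further pairs of paralogs were computed in TPM. PFKFB3 to PFKFB4 was 1.88, 1.42 and 3.21 in BRG1 knockout, 1.30, 1.89 and 1.13 in BRM knockout and 1.13, 0.870 and 0.914 in parental libraries, so the BRG1 knockout libraries were all above the parental ones and overlapped the BRM knockout ones. LDHA to LDHB was 1.31, 1.43 and 1.54 in BRG1 knockout, 1.77, 1.25 and 1.80 in BRM knockout and 1.26, 2.56 and 1.88 in parental libraries, and all 3 groups overlapped. In BRM knockout, where both LDHA and LDHB fell, the ratio lay within the parental range in 2 of 3 libraries.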
